A study of Mus musculus with 18 samples.

Results

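Clint1, Golim4, Srp72, Exoc6, Cpd, Scai and Esd are 7 mouse genes whose transcripts were more abundant in D45/KO erythroblasts than in any other genotype of a Klf1 allele series, with D45/D45 in between. They were picked from the 23365 rows of the deposited count table for that pattern in these same libraries, so the levels in D45/KO and D45/D45 are given as a description, without a test. All 7 passed the filter on low counts, which left 13405 genes. The label of vesicle traffic suits Clint1, Golim4, Exoc6 and Cpd, whose proteins work in the Golgi, endosomes or at the plasma membrane. Srp72 acts a step earlier, Scai is a nuclear cofactor and Esd a cytosolic enzyme.

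The product of Klf1 is a zinc finger protein that switches on genes of red cell formation. Alleles were wild type (WT), knockout (KO) or D45, short for MommeD45, a missense change that the series title places in linker-2, between zinc fingers of the protein. RNA came from spleen cells sorted as CD71-positive (the transferrin receptor) and TER119-positive (a surface marker of maturing red cells) and was sequenced from 18 libraries. There were 3 WT/WT, 3 WT/D45, 3 D45/D45, 5 WT/KO and 4 D45/KO libraries, which the series design calls biological replicates. D45/KO is the compound heterozygote, described there as having haemolytic anaemia and an enlarged spleen, so an effect of the alleles and one of anaemia cannot be told apart in comparisons with it. Strain, age, the part of Klf1 removed in the KO allele and the nature of each allele's carrier line are not given in the sources used here.

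Proteins made for the cell surface or for secretion are threaded into the endoplasmic reticulum with the help of the signal recognition particle, pass through the Golgi, and are sorted at the trans-Golgi network into clathrin-coated and other carriers. The exocyst, a tethering complex, docks carriers at the plasma membrane. In erythroblasts the same machinery returns the transferrin receptor to the surface after it has delivered iron for haem synthesis, and mice with a disrupted Exoc6 (the hbd strain) have a hypochromic anaemia.

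Depth ran from 9.36 to 56.3 M counts per library (M is 1000000), with Klf1 at 158 to 1576 CPM, which is counts per 1000000 of the scaled library size. The erythroid genes Tfrc, Gata1, Epor, Alas2 and Hbb-b1 were abundant in every library. The lowest values were 711 CPM for Tfrc and 2806 CPM for Alas2. Their levels were not even across genotypes. Hbb-b1 ran from 25602 to 639423 CPM in WT/WT and from 29765 to 61542 CPM in D45/KO. Alas2 reached 57198 CPM in WT/WT and 11097 CPM in D45/KO. Gata1 went the other way, with means of 331 CPM in WT/WT and 505 CPM in D45/KO. The part of these differences in later comparisons of genotypes was not tested. Hba-a1, which has a near-identical copy, was at 0 to 0.816 CPM. Libraries divided by B cell transcripts within each genotype. Cd79a, a B cell receptor chain, was at 22 to 219 CPM in 9 libraries and at 0 to 2.22 CPM in the other 9. Rich in them were 3 of the 4 D45/KO libraries, 3 of the 5 from WT/KO and 1 of the 3 in each remaining genotype, and the difference between D45/KO and WT/KO is given within each kind further on. In bulk RNA of this kind, fewer cells of a type and less RNA per cell cannot be told apart.

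The 7 genes were chosen for a shared pattern across genotypes of Klf1, and their start regions were read for the letters that KLF1 is known to bind. The window runs from 250 bases before to 50 after the start site in the RefSeq promoter table, build GRCm38.p6, where 6 of the 7 genes matched by symbol. Clint1 did not match. Counts were made by the submitters on mm9, and no coordinate was carried between the builds. The motif searched was CCNCNCCC on both strands, with overlapping matches counted separately. It is found in 49.7% of the 32544 distinct windows of the table, so a match is common. Golim4 had 2 matches, Srp72 4, Exoc6 16, Cpd 2 and Esd 2, and Scai none. The GATA-type letters AGATAA, present in 11.2% of windows, occurred in Exoc6 alone, and TGATAA, present in 8.91%, in none of the 6. A match is a description of letters and says nothing of binding. Shown are the window richest in matches (Exoc6, many of them overlapping in runs of C), the gene with the largest fold difference from WT/KO (Cpd) and the one with the largest from WT/WT (Scai), each from 5′ to 3′ on the gene's strand with matches to the motif in capitals.
Exoc6, chr19:37550168-37550467 (plus strand): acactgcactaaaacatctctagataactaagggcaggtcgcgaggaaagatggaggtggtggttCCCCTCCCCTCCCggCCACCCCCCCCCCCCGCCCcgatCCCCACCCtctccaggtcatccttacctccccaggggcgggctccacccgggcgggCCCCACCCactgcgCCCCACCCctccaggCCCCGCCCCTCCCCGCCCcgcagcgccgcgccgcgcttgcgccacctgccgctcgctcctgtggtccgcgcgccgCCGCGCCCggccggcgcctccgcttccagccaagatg
Cpd, chr11:76846959-76847258 (minus strand): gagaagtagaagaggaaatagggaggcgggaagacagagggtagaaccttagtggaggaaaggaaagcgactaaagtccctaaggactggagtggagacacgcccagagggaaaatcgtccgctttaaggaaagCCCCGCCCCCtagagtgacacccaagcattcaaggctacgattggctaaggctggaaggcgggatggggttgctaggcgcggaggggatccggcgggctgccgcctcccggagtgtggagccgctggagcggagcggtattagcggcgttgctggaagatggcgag
Scai, chr2:39190681-39190980 (minus strand): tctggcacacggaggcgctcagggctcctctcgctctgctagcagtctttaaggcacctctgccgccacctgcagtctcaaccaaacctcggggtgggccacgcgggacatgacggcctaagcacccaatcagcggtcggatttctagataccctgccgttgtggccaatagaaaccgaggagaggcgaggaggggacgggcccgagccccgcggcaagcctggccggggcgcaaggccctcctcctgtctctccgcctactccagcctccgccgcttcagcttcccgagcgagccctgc

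Clint1 encodes epsinR, a clathrin adaptor that sorts the SNARE protein Vti1b between the trans-Golgi network and endosomes. Its level in the 4 D45/KO libraries was 150.2, 117, 119 and 105 CPM. The 3 D45/D45 libraries had 56.3, 50.2 and 57.0 CPM, WT/KO 54.9, 46.0, 45.8, 34.5 and 40.6 CPM, WT/D45 48.3, 38.0 and 31.8 CPM and WT/WT 47.4, 30.6 and 39.2 CPM. Every D45/KO library lay above all 14 others, while D45/D45 overlapped WT/KO. The log2 fold change of D45/KO over WT/KO was 1.47 ± 0.20 (SE), and of D45/KO over D45/D45 1.17 ± 0.23. D45/D45 differed from WT/WT by 0.48 ± 0.24, which is 29.1% of the way to D45/KO on the log2 scale, the smallest share of the 7 genes.

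Golim4, also called GPP130, is a membrane protein of the cis-Golgi that cycles through endosomes and is known to be degraded when manganese is high. D45/KO libraries had 213, 138, 306 and 233 CPM, the widest absolute range of the 7 genes. D45/D45 had 105, 133 and 144 CPM, WT/KO 53.7, 46.0, 53.5, 95.8 and 103 CPM, WT/D45 63.0, 55.5 and 89.5 CPM and WT/WT 60.0, 52.4 and 66.9 CPM. The lowest D45/KO library lay just under the highest D45/D45 library, and both of these genotypes lay above the 3 with a WT allele, although the lowest D45/D45 and the highest WT/KO library were almost equal. Its log2 fold change was 1.66 ± 0.29 over WT/KO and 0.81 ± 0.33 over D45/D45, the latter 1.24 with library totals in place of TMM scaling.

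Srp72 encodes a protein subunit of the signal recognition particle, and inherited defects of the human gene are linked to marrow failure. Its D45/KO libraries were close to each other, as the choice of genes favoured, at 170.8, 143, 177 and 161 CPM (coefficient of variation 9.21%). D45/D45 had 75.1, 83.1 and 113 CPM, WT/KO 57.4, 54.5, 61.7, 69.6 and 74.7 CPM, WT/D45 59.8, 43.1 and 68.1 CPM and WT/WT 52.6, 56.9 and 70.5 CPM. D45/KO stood above every other library, and D45/D45 above every library with a WT allele, though its lowest value and the highest of WT/KO were almost equal. The log2 fold change over WT/KO was 1.36 ± 0.20 and over D45/D45 0.85 ± 0.23, the latter 1.31 with library totals in place of TMM scaling.

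Exoc6 encodes the exocyst subunit that binds the recycling GTPase Rab11. It had the smallest fold difference from WT/KO of the 7 genes, 1.10 ± 0.21 on the log2 scale, and the least spread within D45/KO. The 4 libraries there had 88.4, 77.7, 82.0 and 82.4 CPM, a coefficient of variation of 5.28%, where the median gene with at least 2 CPM had 27.6%. The genes were chosen for a tight rise in D45/KO, so this small spread restates the choice. D45/D45 had 51.4, 67.7 and 77.8 CPM, WT/KO 33.4, 37.2, 28.1, 40.7 and 53.3 CPM, WT/D45 39.8, 33.6 and 50.8 CPM and WT/WT 38.8, 34.0 and 40.1 CPM. D45/D45 reached 70.7% of the way from WT/WT to D45/KO, the largest share of the 7, and its top library matched the lowest of D45/KO. The difference of D45/KO from D45/D45 was 0.33 ± 0.24, with overlapping libraries. It was 0.18 without D45/D45 replicate 1, 0.69 in the libraries rich in B cell transcripts and 0.82 with library totals in place of TMM scaling.

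Cpd encodes carboxypeptidase D, which trims basic residues from the ends of proteins in the trans-Golgi network. D45/KO libraries had 81.9, 30.5, 53.5 and 43.2 CPM, a coefficient of variation of 41.8%. D45/D45 had 24.4, 19.1 and 19.0 CPM, WT/KO 9.64, 9.46, 8.52, 14.9 and 20.3 CPM, WT/D45 14.6, 17.1 and 17.8 CPM and WT/WT 16.7, 10.1 and 9.67 CPM. The whole D45/KO group was above the rest, but with a spread above the 27.6% of the median gene. Its log2 fold change over WT/KO, 2.06 ± 0.33, was the largest of the 7, and over D45/D45 it was 1.33 ± 0.38.

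Scai encodes a nuclear protein known to repress the MRTF cofactors of serum response factor and to bind the DNA repair factor 53BP1. Its D45/KO libraries had 90.8, 75.2, 118 and 91.5 CPM and its D45/D45 libraries 45.7, 44.4 and 60.7 CPM. WT/KO had 25.7, 27.9, 26.1, 44.2 and 20.4 CPM, WT/D45 18.5, 20.3 and 14.3 CPM and WT/WT 16.4, 9.19 and 15.8 CPM. Scai was the only one of the 7 in which the genotypes D45/KO, D45/D45, WT/KO and WT/WT formed a row with no overlap between neighbours, although the lowest D45/D45 and the highest WT/KO library differed by less than 1 CPM. The log2 fold change over WT/WT was 2.76 ± 0.32 in D45/KO and 1.86 ± 0.32 in D45/D45, in both cases the largest of the 7 genes.

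Esd encodes S-formylglutathione hydrolase, which completes the glutathione-dependent disposal of formaldehyde. D45/KO libraries had 98.7, 80.5, 110 and 117 CPM and D45/D45 53.1, 96.4 and 85.9 CPM, so these groups overlapped. WT/KO had 39.1, 27.0, 14.02, 36.9 and 52.3 CPM, WT/D45 48.4, 45.9 and 59.5 CPM and WT/WT 44.1, 60.6 and 60.8 CPM. Esd differed from the other 6 genes in that WT/KO was its lowest genotype. Its log2 fold change was thus 1.58 ± 0.30 over WT/KO but 0.88 ± 0.35 over WT/WT and 0.37 ± 0.34 over D45/D45. The last value was 0.15 without D45/D45 replicate 1, 0.86 in the libraries rich in B cell transcripts and 0.89 with library totals in place of TMM scaling, which also took the value over WT/WT to 1.37.

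**Figure D1:**
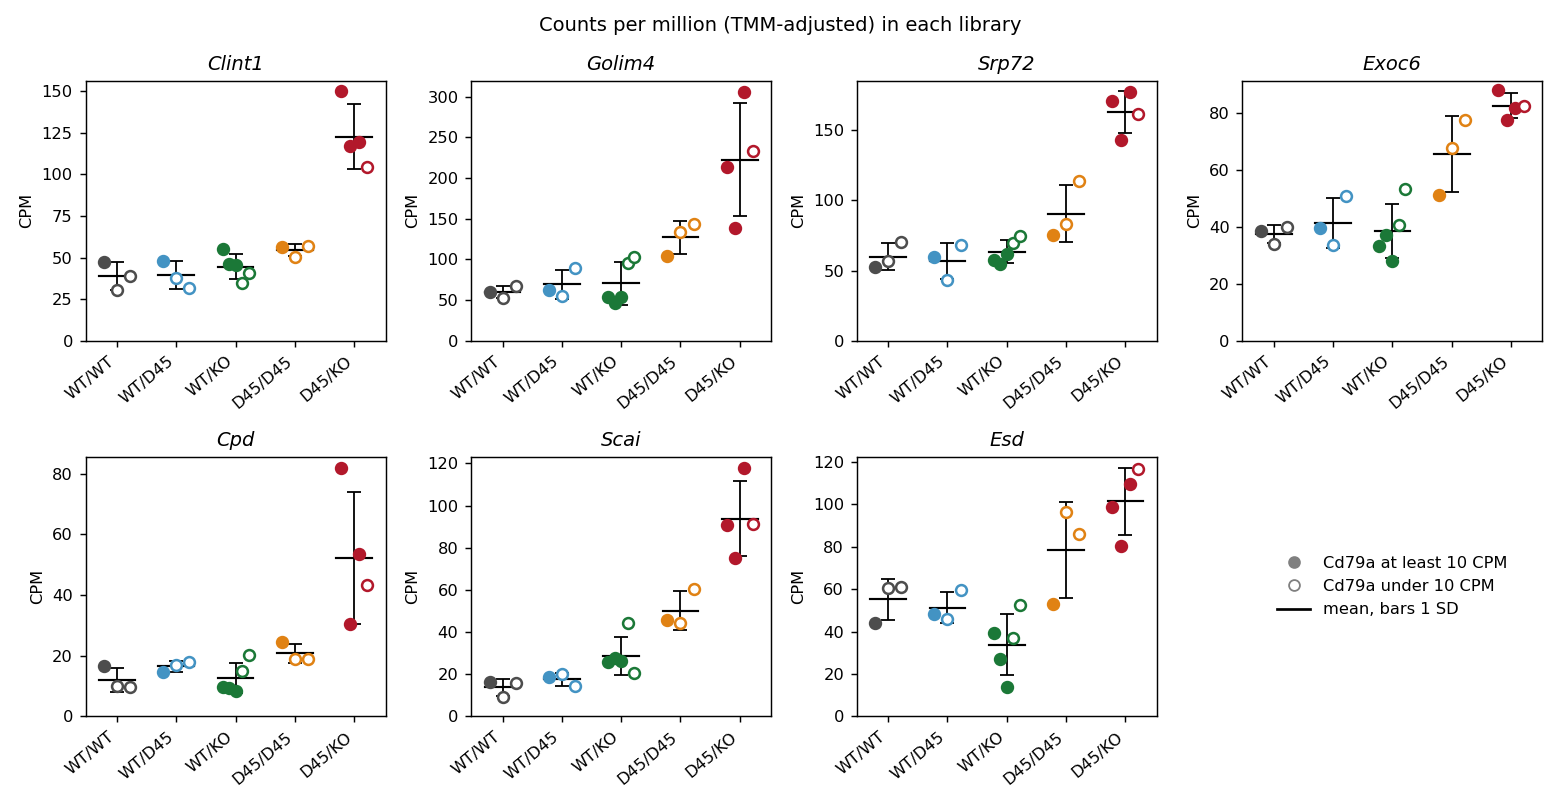
CPM of each gene in every library, by genotype, with the mean and 1 SD; filled points are libraries with at least 10 CPM of the B cell gene Cd79a and open points those below it. In all 7 panels the D45/KO points lie above every library with a WT allele. The mean of D45/D45 lies between, from near the WT groups in Clint1 (54.5 CPM) to near D45/KO in Exoc6 (65.6 CPM). Single D45/D45 libraries overlap those of other genotypes in some panels.

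Across the genotypes, the D45/KO libraries did not overlap WT/KO, WT/WT or WT/D45 for any of the 7 genes, where 1.78%, 6.69% and 4.07% of all tested genes showed the same. Against D45/D45 the groups were apart for 4 genes (Clint1, Srp72, Cpd and Scai), beside 2.48% of all genes, and these are the same 4 for which D45/KO was above all 14 other libraries (0.567% of genes). The order of means D45/KO, D45/D45, then the 3 genotypes with a WT allele held for all 7 and for 7.13% of tested genes. D45/D45 in turn lay above WT/WT and above WT/D45 without overlap for 6 of the 7 (7.38% and 2.37% of genes), all but Esd, and above WT/KO for Golim4, Srp72, Scai and Esd (0.91%). These counts restate how the genes were chosen. The share of the way from WT/WT to D45/KO that D45/D45 reached differed among them. It was 36.8% in Cpd and 41.2% in Srp72, 57.4% in Golim4 and 57.9% in Esd, and 67.4% in Scai. Klf1 itself did not follow this order: its mean was 1227 ± 457 CPM in D45/D45 (SD, n = 3), 982 ± 386 in WT/D45 (n = 3), 821 ± 322 in WT/WT (n = 3), 576 ± 209 in D45/KO (n = 4) and 415 ± 311 in WT/KO (n = 5). D45/KO did not pass in Klf1 against WT/KO or WT/WT (edgeR adjusted p = 0.927 and 0.976). Libraries rich in B cell transcripts had less Klf1, at 452 against 1005 CPM in WT/WT and 193 against 747 CPM in WT/KO. D45/KO and WT/KO held a larger share of such libraries, and the part of that split in these means was not tested.

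**Figure D2:**
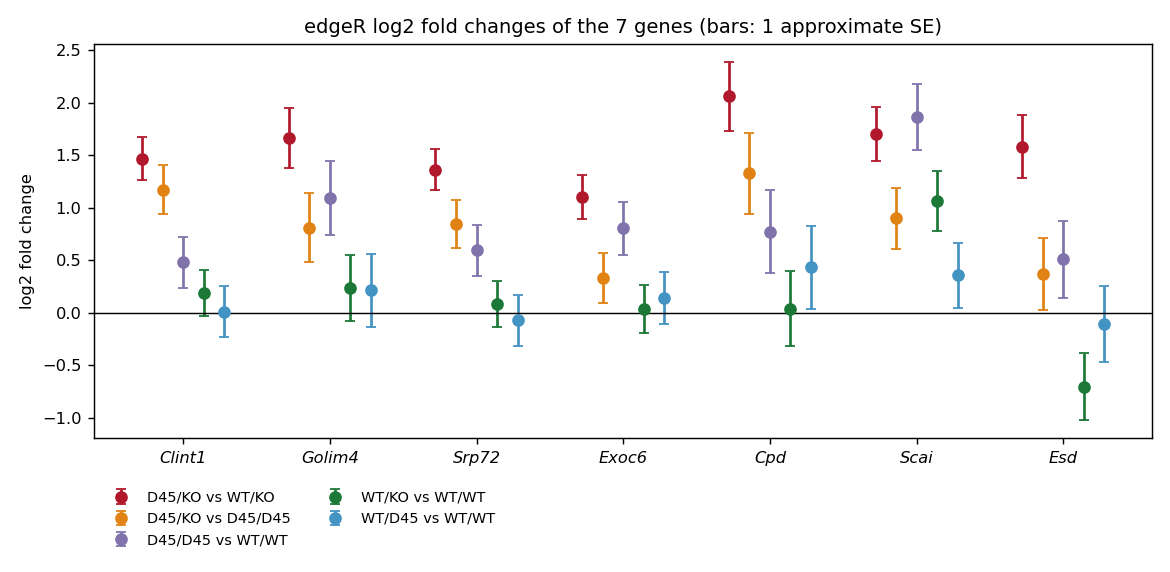
edgeR log2 fold changes of the 7 genes in 5 comparisons, with bars of 1 approximate SE. D45/KO over WT/KO runs from 1.10 in Exoc6 to 2.06 in Cpd, whereas WT/D45 over WT/WT runs from -0.10 in Esd to 0.43 in Cpd.

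The choice of genes did not rank the genotypes with a WT allele against each other, and comparisons among them were tested. Their levels did enter the choice, as the groups that D45/KO and D45/D45 rose above. A lack of difference among them is therefore partly set by the choice. Losing 1 of 2 wild-type alleles to the KO allele (WT/KO against WT/WT) moved none of the 7 past the test, and 0 of 13405 genes passed at all (0%), against 573 at an unadjusted p under 0.05. DESeq2 called 19 genes and limma-voom 1, none of the 7 in either. Scai had the largest difference, with 28.9 ± 9.01 CPM in WT/KO (SD, n = 5) and 13.8 ± 4.01 CPM in WT/WT (n = 3). Its log2 fold change was 1.06 ± 0.29 with an edgeR adjusted p of 0.818, which fails the correction. All 5 WT/KO libraries were above all 3 WT/WT libraries, as for 0.985% of tested genes in the upward direction. Esd had -0.70 ± 0.32 (edgeR adjusted p = 0.818), with lower values in WT/KO in 4 of 5 libraries than in any WT/WT library. The other 5 genes lay between 0.04 ± 0.23 in Exoc6 and 0.24 ± 0.31 in Golim4, below the 0.26 that was the median of all tested genes. In the authors' deposited table of this comparison, taken as WT/WT over WT/KO, Scai had a log2 fold change of -0.91 and Esd of 0.80, each with an adjusted p of 0.853, and none of its 9918 genes had an adjusted p under 0.05.

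With 1 D45 allele beside a WT allele (WT/D45 against WT/WT), the values of the 7 genes were small, and the groups overlapped in each of the 7 (2.86% of genes lay higher without overlap). edgeR called 0 of 13405 genes (0%), with 194 at an unadjusted p under 0.05, and DESeq2 and limma-voom called 0. Cpd had the largest value, 0.43 ± 0.40, from 16.5 ± 1.69 against 12.2 ± 3.95 CPM (SD, n = 3 each), followed by Scai with 0.36 ± 0.31 and Golim4 with 0.21 ± 0.35. Clint1 had 0.01 ± 0.24, Exoc6 0.14 ± 0.25, Srp72 -0.07 ± 0.24 and Esd -0.10 ± 0.36, all with an edgeR adjusted p of 1.

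Libraries rich and poor in B cell transcripts were then set side by side, since they divide D45/KO and WT/KO unevenly. Among the 3 D45/KO and 3 WT/KO libraries rich in them, D45/KO was above WT/KO without overlap in all 7 genes (17.3% of tested genes), with ratios of means from 2.51 in Exoc6 to 6.003 in Cpd. With the single D45/KO and the 2 WT/KO libraries poor in them, the same held in all 7 (29.8% of tested genes), with ratios from 1.75 in Exoc6 to 2.83 in Scai. The lack of overlap in both classes was fixed in advance, as these genes did not overlap over all D45/KO and WT/KO libraries. It adds no support, and the sizes of the ratios are a description. The ratio moved most in Cpd, from 6.003 to 2.46, and in Golim4, from 4.30 to 2.34. WT/KO levels differed between the 2 kinds of library: Golim4 was at 46.0 to 53.7 CPM in the rich WT/KO libraries and at 95.8 and 103 CPM in the poor ones, and Cpd at 8.52 to 9.64 and at 14.9 and 20.3 CPM. In D45/KO, Golim4 averaged 219 CPM in the rich libraries and had 233 CPM in the poor one, and Cpd 55.3 and 43.2 CPM. The ratio of Clint1 was 2.63 and 2.78. The rich class was not matched between the genotypes. Cd79a was at most 85.2 CPM in its D45/KO libraries and at least 195 CPM in its WT/KO libraries. Klf1 was at 282 to 676 CPM in the rich D45/KO libraries and at 158 to 230 CPM in the rich WT/KO libraries. The part of these differences in the ratios of the rich class was not tested. With the mean log2 CPM of 11 B cell markers as a covariate, the median log2 fold change of the 7 genes in D45/KO over WT/KO was 1.57, against 1.58 without it, and that of all genes -0.0042 against -0.15.

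Within genotypes the pairs differed. After the genotype means were removed, log2 CPM of Golim4, Srp72, Exoc6 and Esd had Pearson correlations of 0.47 to 0.75 over the 18 libraries, highest between Golim4 and Srp72. Cpd had 0.60 with Golim4, 0.48 with Exoc6, 0.34 with Esd and 0.23 with Srp72. Clint1 ran against the first 4, from -0.37 with Golim4 to -0.20 with Srp72, and Scai had 0.28 with Golim4, 0.13 with Srp72 and values near 0 with Exoc6 and Esd. Over all 21 pairs the median was 0.23, compared with 0.85 when the genotype differences were left in. These correlations are a description, and the genes share each library's scaling factor and its cell makeup.

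Markers of other cells did not all stay level. The summed level of 7 megakaryocyte markers, a lineage that shares progenitors with red cells, was 425 to 815 CPM in D45/KO and 210 to 618 CPM in D45/D45, against 32.3 to 204 CPM in WT/WT, 41.8 to 172 CPM in WT/D45 and 48.1 to 263.3 CPM in WT/KO. Itga2b, an integrin chain also found on early progenitors, made up most of it in D45/KO and D45/D45, with 450 ± 142 CPM in D45/KO (SD, n = 4), 313 ± 158 in D45/D45 (n = 3) and 72.3 ± 65.4 in WT/KO (n = 5). Vwf, which encodes von Willebrand factor, had 92.6 ± 21.3 CPM in D45/KO and 80.4 ± 39.4 in D45/D45, with 38.2 ± 27.8 in WT/KO and 24.6 ± 19.1 in WT/WT. Gp9, a platelet surface glycoprotein, had 36.5 ± 11.6 and 48.2 ± 14.2 CPM in those 2 genotypes, with 19.1 ± 16.6 in WT/KO and 17.98 ± 6.47 in WT/WT. Pf4, Ppbp and Gp1bb, also of platelets and their precursors, had means under 1.19 CPM in every genotype. None of the 6 megakaryocyte markers tested passed in D45/KO against WT/KO. The sum of 11 B cell markers ran from 3.03 to 782 CPM in D45/KO and from 5.26 to 1976 CPM in WT/KO, and 10 T and NK cell markers from 7.18 to 35.5 and from 14.4 to 107 CPM. For 9 macrophage markers it ran from 81.5 to 2492 and from 95.5 to 2220 CPM and for 8 neutrophil markers from 21.7 to 209.5 and from 4.67 to 55.6 CPM, with every marker found having counts in both genotypes. The kinase gene Lck was the largest part of the T and NK sum in D45/KO, at 8.66 ± 2.10 CPM. Cd3e, Cd3d and Cd3g had means of 0.41, 0.33 and 0.87 CPM there. In WT/WT Lck had 23.3 CPM and Cd3e 0.42 CPM, so this sum is no clear measure of T cells. The part of all these other cells in the levels of the 7 genes was not tested beyond the B cell split.

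Other genes of the same pathways were looked up next. In 8 lists, with 7 to 37 tested genes each and without the 7 genes, 0 passed the test upward and 0 downward in D45/KO against WT/KO. Of all genes 0.172% were called there, 0.112% higher and 0.0597% lower. The median log2 fold change was -0.03 over the genes of all 8 lists and -0.15 over all genes tested. Against WT/WT, 0 were higher and 1 lower, beside 0.619% of all genes called, 0.261% higher and 0.358% lower. Other fits called more, in the lists and in all. With the B cell marker covariate 2 list genes were higher and 2 lower than in WT/KO, 2.34% of the lists beside 2.62% of all genes (1.87% higher, 0.746% lower). Against WT/WT 8 were higher and 2 lower, 5.85% beside 4.06% (2.41% higher, 1.65% lower). In the libraries rich in B cell transcripts alone 12 were higher and 8 lower than in WT/KO, 11.6% of the lists beside 7.55% of all genes (4.84% higher, 2.71% lower). By list, 4 were higher and 0 lower for the transferrin cycle and retromer, 3 and 1 for coats and Golgi, and 2 and 2 for clathrin. The exocyst list and the formaldehyde list had 1 and 0 each, and the SCAI list 1 and 5. Within the class rich in B cell transcripts, Cd79a also differed between D45/KO and WT/KO, as given above.

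Clathrin itself and its adaptors had a median of -0.03 over 31 genes, with 15 above 0, and of 0.18 in the libraries rich in B cell transcripts. Cltc, the clathrin heavy chain, had 1060.3 ± 211 CPM in D45/KO, against 584 ± 310 for WT/KO (SD, n = 4 and 5), a log2 fold change of 0.86 ± 0.41 that did not pass (edgeR adjusted p = 0.905). Epn1, another epsin, had 0.10 ± 0.29. Gga2, an adaptor of the trans-Golgi network, had the smallest p among those below 0, with -1.35 ± 0.73 (edgeR adjusted p = 0.927), at 21.0 ± 11.2 against 53.7 ± 35.3 CPM.

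Of the 15 exocyst genes and their GTPases, 9 were above 0, with a median of 0.08 that turned to -0.05 with DESeq2's size factors and to -0.16 in the libraries poor in B cell transcripts. Exoc6b, the paralogue of Exoc6, was at 1.88 ± 2.09 CPM in D45/KO, against 4.05 ± 3.47 for WT/KO with a log2 fold change of -1.11 ± 1.31. Exoc4 had 0.42 ± 0.31. Exoc2, the subunit that binds Ral GTPases, went the other way from Exoc6. It had 34.0 ± 9.68 CPM in WT/WT, 20.4 ± 1.06 in WT/D45, 19.6 ± 4.26 in WT/KO, 7.89 ± 4.20 in D45/D45 and 10.9 ± 2.78 in D45/KO. Its fall from WT/WT to D45/KO passed the test (-1.64 ± 0.35, edgeR adjusted p = 0.0404), and the 4 D45/KO libraries, with at most 14.5 CPM, were below the 3 WT/WT libraries, with at least 24.2 CPM. The call was lost when any 1 of the 7 libraries was left out, with log2 fold changes of -1.83 to -1.42 and edgeR adjusted p-values from 0.0703 to 0.244. It was also lost in edgeR with DESeq2's size factors (adjusted p = 0.0533), without the filter on low counts (0.0908), in the libraries poor (0.0827) or rich (0.354) in B cell transcripts alone, and with library totals in place of TMM scaling (-1.20, adjusted p = 1). DESeq2 (0.0022), limma-voom (0.0318), the replicate block (0.0483) and the B cell marker covariate (0.0018) kept it.

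Genes of the transferrin cycle and retromer had a median of 0.26 over 21 genes with 14 above 0, the highest of the 8 lists in this fit, and none passed. In the libraries rich in B cell transcripts the median was 0.62 with 4 of 21 genes called higher, beside 4.84% of all genes tested in that fit. In the poor ones it was 0.04, below the lists of coat and Golgi genes (0.18) and of proteases (0.16). Slc39a8, a carrier that brings zinc, manganese and iron into cells, was nearest with 62.0 ± 22.1 CPM in D45/KO, against 26.9 ± 12.7 for WT/KO (1.21 ± 0.38, edgeR adjusted p = 0.472). D45/D45 lay between at 46.3 ± 2.51 CPM. The transferrin receptor Tfrc had 2312 ± 492 CPM in D45/KO, against 2084 ± 1707 for WT/KO.

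Signal recognition and translocation genes had a median of -0.02 over 25 genes, and of 0.15 in the libraries rich in B cell transcripts. Srp68, which forms a dimer with Srp72 in the particle, was at 34.8 ± 5.78 CPM in D45/KO, against 26.2 ± 8.56 for WT/KO, a log2 fold change of 0.41 ± 0.33 (edgeR adjusted p = 0.927) beside 1.36 for Srp72. Srp19 had 0.49 ± 0.25 and Sec11c, a signal peptidase subunit, -0.48 ± 0.25. The coat and Golgi list had a median of 0.02 over 37 genes, and of -0.11 with DESeq2's size factors. Uso1, a Golgi tether, had the smallest p of the 8 lists, with 87.2 ± 9.41 against 46.6 ± 8.50 CPM (0.90 ± 0.24, edgeR adjusted p = 0.258). Golgb1 had -0.74 ± 0.36, and Golm1, which like Golim4 encodes a Golgi membrane protein, had -0.45 ± 0.31.

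Secretory pathway proteases were few (7 tested, median -0.27). The Cpd relatives were sparse, with Cpe without a count in D45/KO and Cpm at 2.55 ± 2.27 CPM there. SCAI partners and serum response factor targets had a median of -0.70 over 25 genes with 7 above 0, and none passed. Vcl, vinculin, had 0.78 ± 0.25 and Tagln2, a transgelin, -2.14 ± 0.996, at 4.33 ± 3.06 against 19.2 ± 13.6 CPM. The median of this list in D45/KO over WT/KO was -1.09 in the libraries rich in B cell transcripts, where 1 gene was called higher and 5 lower (4.84% and 2.71% of all genes tested in that fit), and -0.19 in the poor ones. In WT/KO over WT/WT it was 0.77. The formaldehyde and glyoxal list had a median of -0.20 over 10 genes. In the libraries rich in B cell transcripts it was 0.67 with 1 gene called higher, beside 4.84% of all genes tested in that fit. Adh5, the enzyme that acts just before Esd, had -0.28 ± 0.43.

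**Figure D3:**
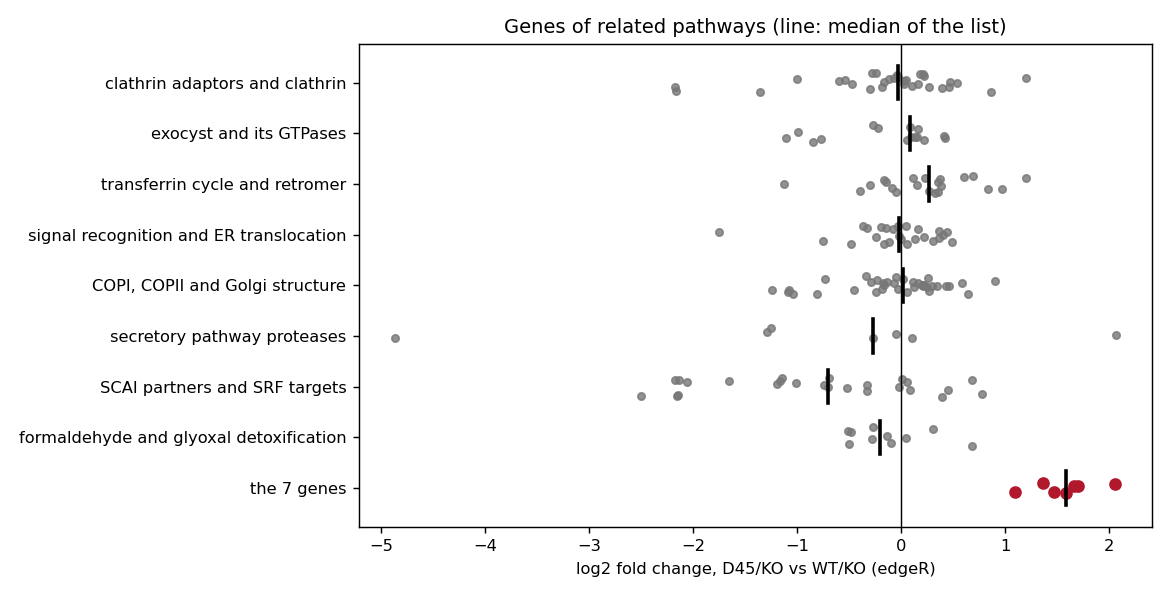
Log2 fold change of D45/KO over WT/KO for each tested gene of 8 pathway lists (grey) and for the 7 genes (red), with a line at each median. The 7 genes, chosen for this difference, lie at 1.10 to 2.06, while the list medians lie between -0.70 and 0.26.

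Genes with the most similar pattern were found by Pearson correlation of log2 CPM with the mean standardised level of the 7 over 18 libraries. They were sought among 9096 genes with a mean of at least 2 CPM over these libraries. Cda, cytidine deaminase, had 0.94 and Lrrc8b, which encodes part of volume-sensing anion channels, 0.94. Cda passed the limit of 2 CPM only through D45/KO, with a mean of 13.2 ± 6.40 CPM there. It had 1.24 ± 0.79 CPM in D45/D45 and lay near 0 in WT/WT (0.27), WT/D45 (0.019) and WT/KO (0.040). Lrrc8b was at 116 ± 40.7 CPM in D45/KO, 41.5 ± 10.5 in D45/D45 and 9.19 ± 5.36 in WT/WT. Dlg1, a scaffold that binds the membrane skeleton protein 4.1, followed with 0.93 and a small range, from 44.7 ± 3.20 CPM in WT/WT to 70.0 ± 4.43 CPM in D45/KO. Pdia2, a protein disulphide isomerase, had 0.93 and Prdx6, a peroxidase, 0.92. The most opposed were the phosphatase gene Phlpp1 at -0.95, Mfhas1 at -0.90 and the kinase gene Lck, listed above with T cell markers, at -0.90. Phlpp1 had 8.81 ± 1.68 CPM in WT/WT, 5.01 ± 1.34 in D45/D45 and 3.52 ± 1.30 in D45/KO, and Mfhas1 49.5 ± 9.67, 8.37 ± 3.45 and 3.62 ± 3.63 CPM. Among the 7 themselves the correlation with their common mean ran from 0.81 in Esd to 0.97 in Golim4.

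**Figure D4:**
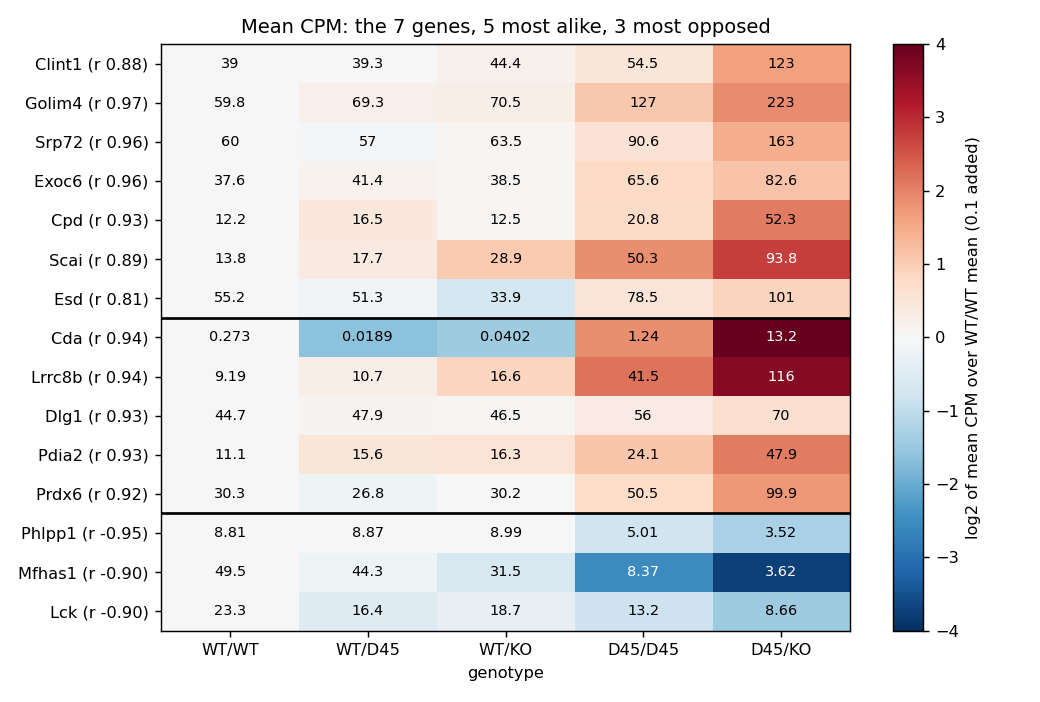
Mean CPM (numbers) by genotype for the 7 genes, the 5 genes most like their mean and the 3 most opposed, coloured by the log2 ratio to WT/WT with 0.1 CPM added, and the colour scale ends at 4 in both directions, which Cda passes in D45/KO. Lrrc8b and Prdx6 share the step from D45/D45 (41.5 and 50.5 CPM) to D45/KO (116 and 99.9 CPM), and Mfhas1 falls to 8.37 and 3.62 CPM.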

How the data were processed

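RNA-seq counts per gene symbol were deposited for 18 libraries of 5 Klf1 genotypes, and these raw counts are the authors' own. Per the submitters' processing notes, HISAT2, featureCounts, limma and the mm9 genome were used. Their versions, their roles and the strand setting are not given in the sources here. The authors also deposited a table of 9918 genes with CPM values, log2 fold changes (WT/WT relative to WT/KO) and p-values. Per the labels' protocols, Trizol was used to extract RNA and the Swift Rapid RNA kit to build libraries.

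Genotypes in the labels set the groups. The fit used edgeR 4.0.16 under R 4.3.3 (13405 genes by filterByExpr, TMM, quasi-likelihood fit of all 18 libraries by genotype, robust estimation off, tested on simulated data). Calls are at a Benjamini-Hochberg adjusted p under 0.05, over all genes tested. CPM were taken on TMM-scaled totals, with 2 as prior count on the log2 scale. The SE is the absolute log2 fold change divided by the square root of F and is approximate. Libraries at or above 10 CPM of Cd79a were called rich in B cell transcripts, a split made from the data. The lowest count of any of the 7 genes in a library was 83, for Cpd in WT/WT replicate 3. The 7 genes and all lists were chosen with earlier results of these data known. Named are the 7 genes, Klf1, their close relatives, called genes and the smallest p in each direction of each list, and the genes most and least alike in pattern. Tfrc and the cell markers were chosen as checks. Alternatives were DESeq2 1.42.0, its size factors, limma-voom (limma 3.58.1), no filter, a block by replicate number, a B cell marker covariate, either B cell class alone, each library left out, and library totals without TMM, added after seeing the data.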

Additional observations from a re-analysis of the deposited data

How the results depend on the processing

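For the 7 genes, D45/KO stayed above WT/KO, WT/WT and D45/D45 under all alternatives run, which the choice of genes all but fixes. Log2 fold changes ran from 0.86 to 2.63, from 0.79 to 3.02 and from 0.23 to 1.66 in these comparisons outside the fits that leave out a library, and 4, 3 and 9 of 63 values in each moved by more than the spread of the libraries. With library totals in place of TMM the median of all genes in D45/KO over WT/WT went from 0.07 to 0.37 and that of the 7 genes from 1.65 to 1.92, and with DESeq2's size factors the median of all genes in D45/KO over WT/KO went from -0.15 to -0.26 and that of the 7 from 1.58 to 1.52. The cause was not tested.

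Counts of called genes moved more. D45/KO against WT/KO gave 23 genes, with 38 under DESeq2's size factors, 185 with DESeq2, 67 with limma-voom, 351 with the B cell marker covariate, 46 in the poor and 1103 in the rich libraries, and 43 with library totals. Leaving out a library gave 9 to 36 (10, 9 and 13 without D45/KO replicates 1, 3 and 4, and 15, 14, 11 and 36 without WT/KO replicates 1, 2, 4 and 5). D45/KO against WT/WT gave 83, with 126, 406 and 544 under DESeq2's size factors, DESeq2 and the covariate, 322 in the poor and 10 in the rich libraries, and 19 to 121 with a library left out (19 and 28 without WT/WT replicates 2 and 3, and 25, 31 and 24 without D45/KO replicates 1, 3 and 4). WT/KO against WT/WT gave 0, with 19 by DESeq2, 1 by limma-voom, 4 with the covariate, 23 in the poor libraries and 0 to 1 with a library left out, and WT/D45 against WT/WT gave 0, with 3 in the poor libraries.

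A replicate block in the fit gave 128 genes in D45/KO against WT/KO and 209 against WT/WT. By their labels the samples share only a number. A correlation of deviations over 0.1 was found in 18 of 31 same-numbered pairs (median 0.22) and in 37 of 97 other pairs (median -0.11). Of 18 libraries, 6 correlated best with their own number. Replicate 1 was rich in B cell transcripts in every genotype, so the block is not separate from that split. Under the block, WT/KO over WT/WT turned to -0.12 in Golim4, -0.0075 in Srp72, -0.14 in Exoc6 and -0.24 in Cpd.

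Small differences among genotypes with a WT allele changed sign elsewhere too. WT/KO over WT/WT was -0.054 in Clint1, -0.33 in Golim4, -0.33 in Exoc6 and -0.96 in Cpd in the rich libraries, and -0.28 in Cpd with limma-voom. With a library left out it ran from -2.1e-04 to 0.21 in Srp72, -0.11 to 0.13 in Exoc6 and -0.20 to 0.34 in Cpd. WT/D45 over WT/WT was -0.037 in Clint1 with DESeq2 and with its size factors, -0.039 with limma-voom and -0.047 in the poor libraries, and in the rich libraries 0.20 in Srp72, -0.18 in Cpd and 0.15 in Esd. With library totals it was 0.32 in Srp72 and 0.27 in Esd. With a library left out it ran from -0.16 to 0.18 in Clint1, -0.011 to 0.35 in Golim4, -0.22 to 0.095 in Srp72 and -0.032 to 0.27 in Exoc6. Scai in WT/KO over WT/WT was above 0 in every alternative run, from 0.60 to 1.35, and from 0.84 to 1.21 with a library left out. It failed the correction in each, with adjusted p-values of at least 0.119 (edgeR with the block) and 0.200 with a library left out.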

Other observations

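When the fit held a covariate for B cell markers, more genes of the 8 pathway lists passed the test than without it, 2.34% of the lists in D45/KO over WT/KO, where 2.62% of all genes were called, and 5.85% over WT/WT, where 4.06% were. The share in the first is near that of all genes, so the calls below are given as values of single genes. In D45/KO over WT/KO these were Cltc, the clathrin heavy chain, with a log2 fold change of 0.93 (edgeR adjusted p = 0.0131), and Uso1, a Golgi tether, with 0.88 (edgeR adjusted p = 0.0153). Tpm4, a tropomyosin, had -1.69 (edgeR adjusted p = 0.0124) and Tagln2 -1.78 (edgeR adjusted p = 0.0460). In D45/KO over WT/WT, Cltc had 0.90, Uso1 0.95, Slc39a8, the metal ion carrier, 1.77, Ehd1, a recycling endosome ATPase, 0.78, Rab11fip1, a Rab11 effector, 1.58, Ap3b1 1.06, Ap2b1 0.73 and Junb 2.05, and Tagln2 had -2.04. Each had an edgeR adjusted p under 0.05 in that fit. Exoc2 kept its fall there, with -1.73 (edgeR adjusted p = 0.0018). These genes were picked after their values were seen.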
